A study of Mus musculus with 6 samples.

Results

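Genes that inhibit or report on signaling through the extracellular signal-regulated kinase (ERK) were followed in primary mouse calvarial preosteoblasts, the precursors of bone-forming osteoblasts. The 10 genes were chosen by symbol as Sprouty genes (Spry1, Spry2, Spry4), SPRED genes (Spred1, Spred2), dual-specificity phosphatase genes (Dusp4, Dusp5, Dusp6) and ETS factor genes (Etv4, Etv5). All 10 of 10 were among the 17001 rows of the expression table. Cells came from the skull vault of 3-day-old pups, grew in α-MEM with serum, and were sequenced as polyA RNA in 6 libraries. The 3 control libraries carried NELL2 fx/fx, that is, floxed alleles of Nell2, the gene of a secreted EGF-like protein, with no Cre named in the labels. The 3 libraries labelled cKO carried Col1-cre; NELL2 fx/fx, with the same floxed alleles and Cre driven by a Col1a1 promoter, so recombination is limited to cells of a culture in which that promoter has been active. The labels give no sex and do not say whether libraries came from separate pups or pools, so p-values measure the spread between these libraries, which may be partly technical. Each value is an FPKM (a fragment count divided by transcript length and by the mapped fragments of the library), which carries no read number, so the depth of each library is unknown. Values are listed in the order of replicates 1, 2 and 3.

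In the ERK pathway, growth factors bind receptor tyrosine kinases, RAS is loaded with GTP, and the kinases RAF, MEK and ERK are switched on in turn. ERK then drives transcription of genes that restrain it: Sprouty and SPRED proteins act on RAS and RAF, and DUSP phosphatases remove the activating phosphates from ERK. Transcripts of these inhibitors and of ETS factors such as Etv4 and Etv5 are therefore widely used as a readout of the pathway, which in the bone of the skull lies downstream of FGF receptors. They are RNA levels, and phosphorylated ERK was not analysed here.

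Of the 10 genes, Dusp4 differed most between the groups, at 1.38 times the control level in the libraries labelled cKO, and the Sprouty genes Spry1 and Spry2 were 1.22 and 1.21 times the control level with overlapping groups. Dusp6, Spred1, Spred2 and Spry4 had group means within 2.16% of each other. An adjusted p under 0.05 in limma was reached by 0 of the 10 genes and by 0% of all genes tested, and an unadjusted one by 1 of the 10 and by 13.1% of all. The targeted gene Nell2 was itself not lower under the cKO label. It measured 3.17, 2.59 and 1.88 FPKM in the controls, and 5.64, 1.61 and 5.74 in those labelled cKO. The difference was not larger than the replicate spread (log2 fold change 0.48, SE 0.37, adjusted p = 0.591, limma with the Benjamini-Hochberg method). It was 0.93 (unadjusted p = 0.000988, adjusted p = 0.596 from limma) without the library labelled cKO replicate 2, 0.26 without cKO replicate 1 and 0.25 without cKO replicate 3. An FPKM over the whole gene does not separate the floxed exons from the rest. All directions below therefore follow the labels.

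The libraries were alike in coarse measures, with FPKM sums of 573307 to 606428, correlations across tested genes of 0.982 to 0.994, and 8.47% to 9.19% of the sum in the 10 highest genes. Osteoblast lineage markers summed to 18466 to 19178 FPKM in the control libraries and 19116 to 19459 in the libraries labelled cKO, mostly collagen I transcripts. Y-linked genes were expressed in 1 control library (replicate 3) and 2 libraries labelled cKO (replicates 1 and 3). These measures do not show rarer transcripts. Some single markers of the osteoblast lineage and of other cell types differed between the groups, and they are given after the upstream genes.

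FPKM is per length, so levels can be ordered between genes. Averaged over the 6 libraries, Spred1 was the highest of the 10 at 14.7 FPKM, above the mean of 71.7% of all rows. Spred2 (10.2), Etv5 (9.99), Spry2 (9.09), Spry1 (8.78) and Dusp6 (8.40) followed, each overlapping its neighbour within these 5 in the range over libraries. Etv4 (6.58) overlapped Dusp5 (4.99), and Dusp4 (2.67) overlapped Spry4, the lowest at 1.96 FPKM and above 38.1% of rows. Ranges of neighbours were apart at only 3 steps of this order, between Spred1 and Spred2, Dusp6 and Etv4, and Dusp5 and Dusp4. The groups did not overlap in Dusp4 and Dusp5 (2 of the 10, against 18.3% of all genes tested), which are 2 of the 3 lowest, and on the log2(FPKM + 1) scale used for the tests a difference in a low gene is understated.

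**Figure D1:**
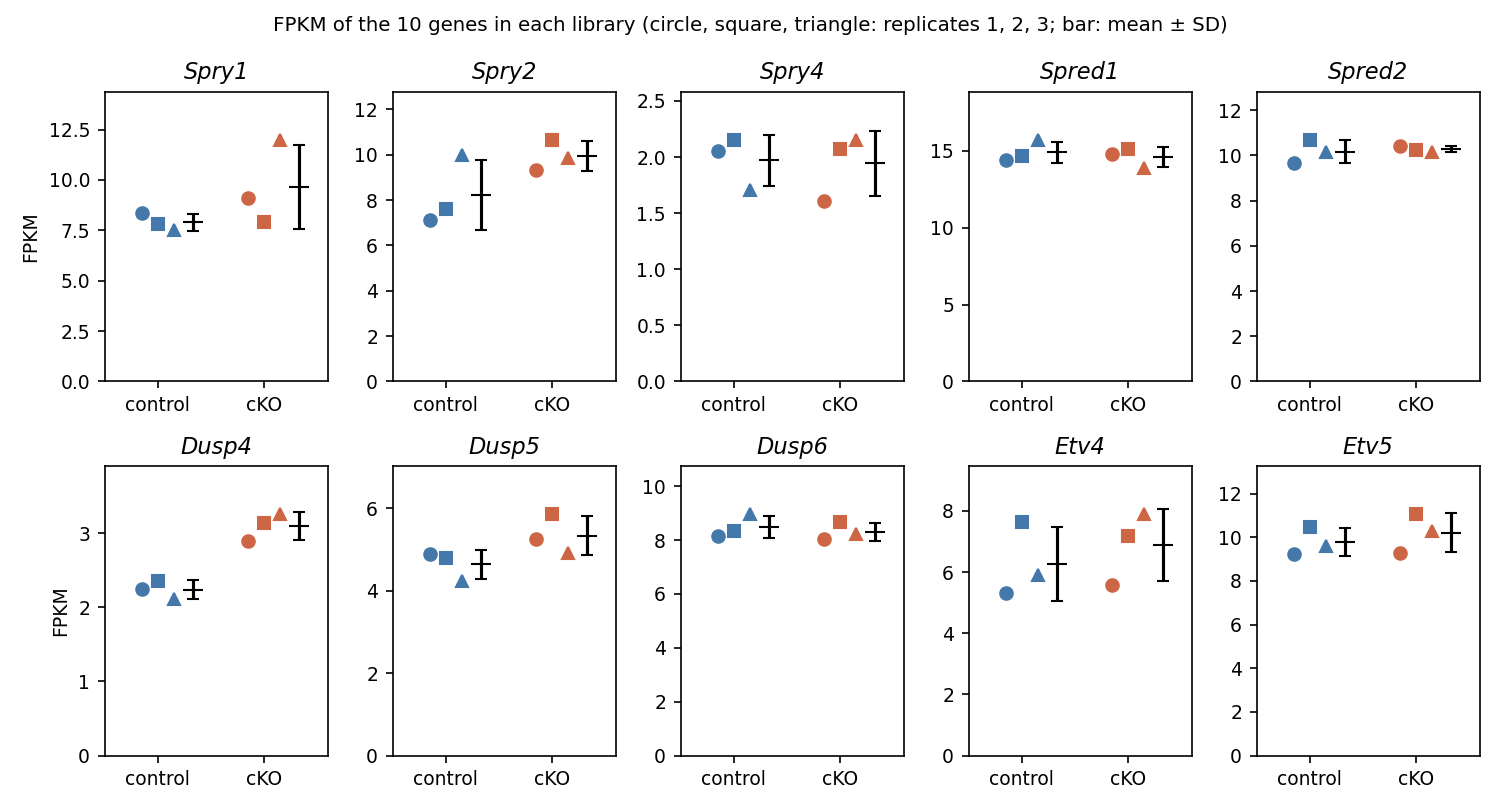
FPKM (vertical axes, each starting at 0) of the 10 genes in the control (blue) and cKO (orange) libraries, with replicates 1, 2 and 3 as circle, square and triangle and the mean ± SD beside them. In Dusp4 the 3 libraries labelled cKO (2.89 to 3.25) lie above the 3 controls (2.11 to 2.36), and in Dusp5 the gap between the groups is 4.90 to 4.91.

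Among the phosphatases, Dusp4 encodes a nuclear enzyme that acts on ERK and on related kinases. It lies on chromosome 8 of GRCm38 at chr8:34807297-34819894 on the plus strand. Dusp4 measured 2.24, 2.36 and 2.11 FPKM in the controls, and 2.89, 3.14 and 3.25 in those labelled cKO. Each library labelled cKO was above each control, and the spread within a group was small beside the step between the groups. The means were 2.24 ± 0.13 and 3.09 ± 0.18 (SD, n = 3 each), 38.3% higher in the libraries labelled cKO. The log2 fold change of FPKM + 1 was 0.34 (SE 0.07, 95% interval 0.18 to 0.49, unadjusted p = 0.00135 and adjusted p = 0.312, limma with the Benjamini-Hochberg method). The smallest adjusted p reached by any gene was 0.312, and genes with an unadjusted p as large as 0.0177 in limma shared it. By p Dusp4 was at rank 34 of 11590 genes, and Dusp4 did not pass. Without the library labelled cKO replicate 1 its log2 fold change was 0.37 and its adjusted p 0.0503 (limma). Its unadjusted p there was 0.00147 (limma), not smaller than with all libraries, and 334 of all genes had an adjusted p under 0.05. The exact two-sided permutation test gave p = 0.1, the smallest that 3 libraries against 3 allow.

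Dusp5 encodes a nuclear phosphatase specific to ERK, and lies at chr19:53529109-53542431 on the plus strand. Dusp5 measured 4.90, 4.79 and 4.24 FPKM in the controls, and 5.26, 5.85 and 4.91 in those labelled cKO. The groups did not overlap, but only by the last decimal, as the lowest library labelled cKO (4.91) stood just above the highest control (4.90). With each library rescaled to the same FPKM sum, or with quantile normalization, the groups overlapped. The log2 fold change was 0.17 (SE 0.08, 95% interval -0.03 to 0.36, adjusted p = 0.427 from limma). Its exons overlap those of an antisense gene, AC137853.2, and whether reads were counted by strand is not given in the sources used here, so reads of the pair cannot be told apart.

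Dusp6 encodes the cytoplasmic ERK phosphatase that is often taken as the standard transcript readout of FGF signaling, and lies at chr10:99263231-99267489 on the plus strand. Dusp6 measured 8.17, 8.34 and 8.95 FPKM in the controls, and 8.04, 8.66 and 8.21 in those labelled cKO. The groups lay on top of each other, with the highest value in a control library and the lowest in one labelled cKO. The log2 fold change was -0.03 (SE 0.06, adjusted p = 0.869 from limma), with a 95% interval of -0.18 to 0.12. This interval ends below the lower bound of the interval for Dusp4, as do those of Spred1 and Spred2. The intervals are not adjusted and Dusp4 is the gene of the 10 that differed most, so this is no test between genes. The ratio of Dusp4 to Dusp6, in which the scale of a library cancels, was 0.274, 0.283 and 0.236 in controls and 0.359, 0.363 and 0.396 in libraries labelled cKO (exact two-sided permutation p = 0.1, the smallest possible). Counting Dusp6, the ratio of Dusp4 to 6 of the 9 other genes separated the groups, the exceptions being Spry1, Spry2 and Etv4. All 9 ratios share Dusp4, which separated the groups by itself and differed most, so they are not separate evidence. How often such ratios separate for other genes was not computed.

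RefSeq promoter windows (GRCm38.p6, 250 bases before to 50 after each transcript start) were matched by symbol for 7 of the 10 genes, in 8 windows, and not for Dusp4, Spry4 and Etv4. The bases before the start of Dusp5 (chr19:53528895-53529144, plus strand) and Dusp6 (chr10:99262981-99263230, plus strand) are shown because these phosphatase genes differ in known response elements of growth factor signaling. Capitals mark CArG boxes, the element bound by serum response factor, and the short form TGACG of the cAMP response element (CRE) on either strand.

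Dusp5: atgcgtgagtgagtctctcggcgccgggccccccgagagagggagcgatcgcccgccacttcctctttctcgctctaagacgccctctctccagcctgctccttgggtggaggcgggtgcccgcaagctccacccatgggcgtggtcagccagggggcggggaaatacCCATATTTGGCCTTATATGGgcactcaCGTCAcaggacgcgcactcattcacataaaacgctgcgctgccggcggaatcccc

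Dusp6: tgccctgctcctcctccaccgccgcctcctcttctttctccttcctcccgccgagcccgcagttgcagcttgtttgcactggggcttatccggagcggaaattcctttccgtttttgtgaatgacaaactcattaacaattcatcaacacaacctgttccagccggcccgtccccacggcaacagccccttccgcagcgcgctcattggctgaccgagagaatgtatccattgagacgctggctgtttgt

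Dusp5 held 2 CArG boxes side by side, starting at positions -82 and -72 (the first transcribed base is 1), and a TGACG on the opposite strand at -55. A CArG box was found in 1.63% of 32851 RefSeq promoter windows searched on both strands, and 2 or more in 6 windows (0.0183%). No other matched gene of the 10 held one, and in the list of other ERK transcript targets described below, Egr2 and Zfp36 did among 11 matched genes. TGACG, found in 20.8% of windows, was also in Spred2 at -51, and the ETS motif CCGGAA, found in 14.9%, was in Spry2 at 34. The full CRE TGACGTCA (1.79% of windows) and the AP-1 motif TGANTCA (7.81%) were in none of the 8 windows. The ETS core GGAA was in 96.0% of all windows, so its presence says little. Of the 8 windows, only the Etv5 window at chr16:22439521-22439820 lacked it. These are matches of letters and not measured binding.

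Sprouty proteins bind adaptors near the receptor and block activation of RAS and RAF. Spry1 lies at chr3:37639947-37644598 on the plus strand. Spry1 measured 8.36, 7.82 and 7.51 FPKM in the controls, and 9.12, 7.89 and 11.97 in those labelled cKO. The library labelled cKO replicate 3 stood apart from the other 5, and replicate 2 of that group fell inside the control range. The log2 fold change was 0.24 (SE 0.14, 95% interval -0.08 to 0.57, adjusted p = 0.475 from limma), and it was 0.09 without cKO replicate 3. Exons of Gm42922 overlap it on the other strand, with the same limit as for Dusp5.

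Spry2 lies at chr14:105891947-105896819 on the minus strand. Spry2 measured 7.11, 7.60 and 9.99 FPKM in the controls, and 9.31, 10.64 and 9.87 in those labelled cKO. Control replicate 3 sat among the libraries labelled cKO, while the other 2 controls were below all of them. The log2 fold change was 0.26 (SE 0.12, 95% interval -0.03 to 0.54, unadjusted p = 0.0743 and adjusted p = 0.418 from limma). Without control replicate 3 it was 0.39, with an unadjusted p of 0.00344 and an adjusted p of 0.281 from limma. Both Spry1 and Spry2 were above their own means in cKO replicates 1 and 3, and in cKO replicate 2 and control replicate 3 Spry2 was above and Spry1 below. The ratio of Spry2 to Spry1 ran from 0.850 to 1.33 in controls and from 0.825 to 1.35 in libraries labelled cKO.

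Spry4 lies on chromosome 18 at chr18:38586247-38601415 on the minus strand. Spry4 measured 2.05, 2.15 and 1.71 FPKM in the controls, and 1.61, 2.07 and 2.15 in those labelled cKO. The highest value was the same in both groups. The log2 fold change was -0.01 (SE 0.10, 95% interval -0.25 to 0.22, adjusted p = 0.962 from limma), and its sign changed with the processing.

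The SPRED proteins recruit the RAS inhibitor neurofibromin to the membrane. Spred1 (chr2:117121374-117182279, plus strand) measured 14.38, 14.63 and 15.68 FPKM in the control libraries, and 14.78, 15.11 and 13.87 in those labelled cKO. Spred2 (chr11:19924375-20024026, plus strand) measured 9.66, 10.67 and 10.15 FPKM in controls, and 10.42, 10.24 and 10.16 in those labelled cKO. Within a group the coefficient of variation was 1.30% to 4.97% for this pair, 3.86% and 4.83% for Dusp6, and 17.2% and 19.3% for Etv4. The log2 fold changes were -0.03 for Spred1 (95% interval -0.18 to 0.13) and 0.02 for Spred2 (95% interval -0.13 to 0.16), with adjusted p values of 0.870 and 0.933 from limma.

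Etv4 and Etv5 encode ETS transcription factors of the PEA3 group that are induced by FGF signaling. Etv4 (chr11:101769742-101785371, minus strand) measured 5.30, 7.63 and 5.89 FPKM in the control libraries, and 5.58, 7.19 and 7.88 in those labelled cKO. Etv5 (chr16:22381309-22439719, minus strand) measured 9.23, 10.46 and 9.62 FPKM in controls, and 9.29, 11.04 and 10.30 in those labelled cKO. In both genes, replicate 1 of each group was the lowest of its group and the groups overlapped. The log2 fold changes were 0.12 for Etv4 (SE 0.15, 95% interval -0.24 to 0.48) and 0.06 for Etv5 (SE 0.08, 95% interval -0.14 to 0.25), with adjusted p values of 0.754 and 0.780 from limma. Leaving out 1 library gave 0.02 (without control replicate 1) to 0.25 (without control replicate 2) for Etv4, and 0.0034 (without cKO replicate 2) to 0.12 (without cKO replicate 1) for Etv5. Their levels followed each other over the libraries, with a Pearson r of 0.87 over 6 libraries, given as a description since both share each library's scale.

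**Figure D2:**
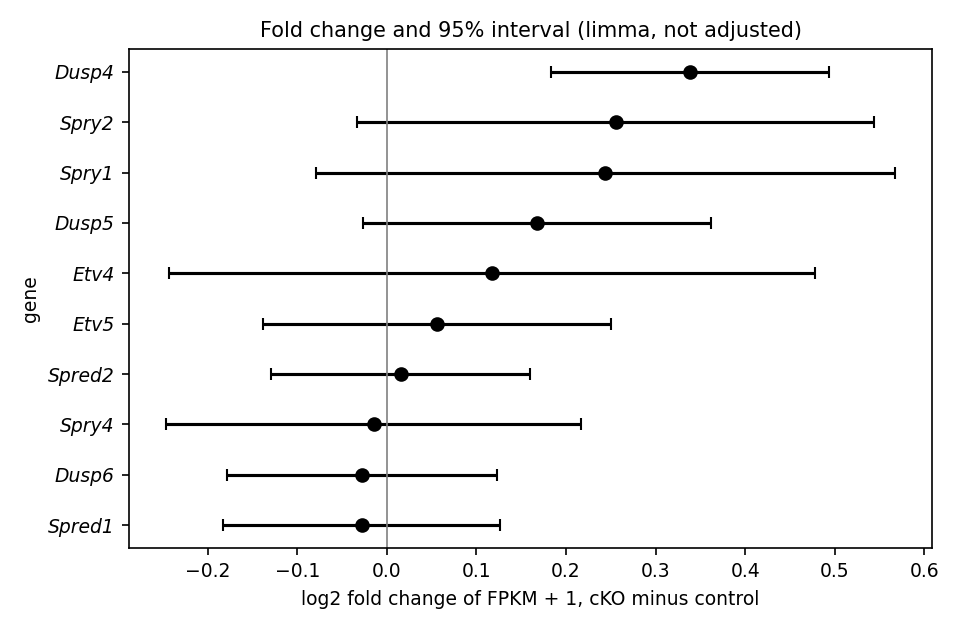
Log2 fold change of FPKM + 1 (horizontal axis, cKO minus control) of each of the 10 genes, with bars for the 95% interval from limma, not adjusted for the number of genes. The interval of Dusp4 (0.18 to 0.49) lies above 0 and those of the other 9 genes include it.

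All 10 genes passed the filter on low values, a minimum of 1 FPKM in 3 or more of the 6 libraries. Counted together, 0 of the 10 genes had an adjusted p under 0.05 in limma's moderated test, against 0 of 11590 genes tested (0%). With an unadjusted p under 0.05 there was 1, Dusp4, against 13.1% of all genes (1521), and 5.37% with higher values (622). Groups did not overlap in 2 of the 10, both higher in the libraries labelled cKO, against 18.3% of all genes (2123) in either direction and 6.51% (755) higher. The shares of the 10 genes, 10.0% and 20.0%, were thus near the background in either direction, and a single gene makes up the first. The median log2 fold change was 0.09 for the 10 genes and -0.02 for all genes tested, and 7 of the 10 were above 0.

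By library, the median deviation of the 10 genes from their own means on the log2 scale was -0.06, -0.01 and -0.08 in the controls, and 0.02, 0.09 and 0.07 in those labelled cKO. In the library labelled cKO replicate 2, 9 of the 10 genes were above their own mean, and in control replicate 1 only 1 was, which was Spry4. The same share over all genes was not computed, so these counts cannot be told from library scale. The FPKM sum was also highest in cKO replicate 2 (606428) and lowest in control replicate 1 (573307). Set against the range of the 3 controls, 5, 6 and 5 of the 10 genes lay inside it in cKO replicates 1, 2 and 3. Over all genes tested the shares inside were 52.5%, 34.7% and 35.6%. The genes above the control range in all 3 libraries labelled cKO were Dusp4 and Dusp5. Spry1 was above it in replicates 1 and 3, Spry2 and Etv5 only in replicate 2, and Etv4 only in replicate 3. Below the control range were Spry4 and Dusp6 in replicate 1 and Spred1 in replicate 3. Over all genes tested, more were below than above the control range in each library labelled cKO (3424 and 2085 in replicate 1, 3798 and 3766 in replicate 2, and 4564 and 2899 in replicate 3).

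**Figure D3:**
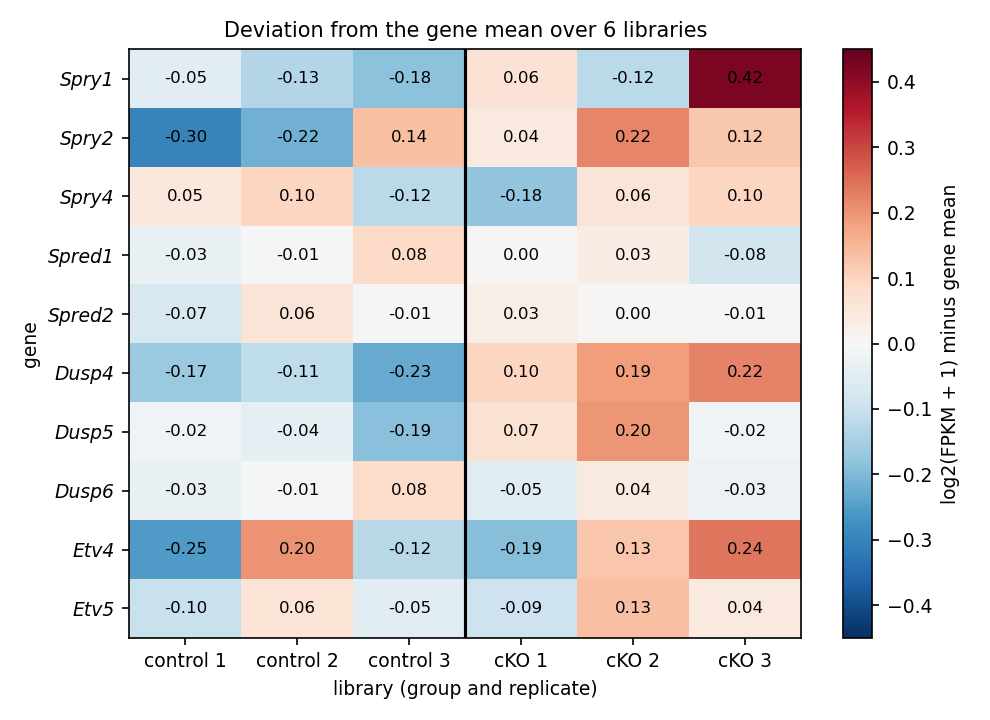
Deviation of log2(FPKM + 1) from the mean of each gene (rows) in each library (columns), with red above and blue below the gene's mean. Dusp4 is blue in the 3 controls and red in the 3 libraries labelled cKO, while the largest single deviation is Spry1 in cKO replicate 3.

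The 10 genes did not vary as one block. Beside the pair of ETS factors, Spred1 and Dusp6 had a Pearson r of 0.79 over the 6 libraries and Dusp4 and Dusp5 one of 0.73, while Spry1 and Spred1 had -0.80. These are descriptions over points that share library scale and group. Among 8352 genes with a mean of at least 5 FPKM, the profiles most like the mean standardised profile of the 10 were those of Kri1 (r = 0.996 over 6 libraries), Itfg2 (0.992), Mrpl30 (0.986), Aatf (0.985) and Smad5 (0.980). Each of these was lowest in control replicate 1 and highest in cKO replicate 2, with overlapping groups, as the mean profile itself was.

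Of 12 other genes of the same families, 10 were tested, and Dusp14, another dual-specificity phosphatase, was the one with an unadjusted p under 0.05 (13.1% of all genes tested). It measured 3.39, 4.02 and 4.37 FPKM in controls, and 4.10, 6.10 and 6.09 in those labelled cKO (log2 fold change 0.37, SE 0.15, adjusted p = 0.365 from limma). Replicates 2 and 3 labelled cKO were above all controls and replicate 1 was not. The median of the family list was 0.01, 6 of the 10 were above 0, and groups did not overlap in 0 of the 10 (18.3% of all genes tested). Spry3 and Dusp2 were too low to be tested.

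Of 15 other inhibitors of the pathway, such as RAS GTPase-activating proteins and CBL ligases, 14 were tested and 0 had an unadjusted p under 0.05 in limma. Groups did not overlap in 2, both lower (14.3%, against 18.3% of all genes in either direction and 1368 of 11590 lower). The list median was -0.04. The 2 with the largest differences were Paqr3, a Golgi protein that holds RAF, at 0.28 (SE 0.17), and Pebp1, a RAF kinase inhibitor, at -0.13 (SE 0.08). Of the 27 genes of the cascade itself, all were tested, and the median was -0.02. With an unadjusted p under 0.05, 0 were higher and 3 lower. That is 11.1%, against 13.1% of all genes in either direction and 899 of 11590 lower. Groups did not overlap in 6 of the 27 (22.2%, against 18.3% of all genes), 5 lower and 1 higher, against 1368 lower and 755 higher of all 11590. The 3 with an unadjusted p under 0.05 were Hras (log2 fold change -0.23, SE 0.08) and Rras2 (-0.20, SE 0.07), which encode RAS family GTPases, and Ptpn11 (-0.16, SE 0.06), which encodes the phosphatase SHP2. Their adjusted p values were 0.337 to 0.362 from limma.

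Of 20 other transcripts known to follow ERK activity, 19 were tested, and 4 were higher and 0 lower with an unadjusted p under 0.05 (21.1%, against 13.1% of all genes in either direction and 5.37% higher). The list median was 0.09, with 14 genes above 0 and 5 below. Among those below was Ccnd1 at -0.40 (SE 0.22), with overlapping groups. This list, like the others, was chosen with earlier results of these data known. Hbegf, an EGF receptor ligand, measured 6.06, 7.14 and 5.54 FPKM in controls, and 7.09, 10.88 and 8.80 in those labelled cKO, with a log2 fold change of 0.44 (SE 0.15). Fosl1, which encodes the AP-1 subunit FRA1, had a log2 fold change of 0.33 (SE 0.12), the cytokine gene Lif 0.28 (SE 0.09), and the zinc finger factor gene Egr2 0.27 (SE 0.09). The groups did not overlap in Fosl1, Lif and Egr2 (15.8% of the 19, against 18.3% of all genes and 6.51% higher) and overlapped in Hbegf. Adjusted p values of these 4 were 0.312 to 0.347 from limma, so none passed.

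Upstream, 16 of 19 receptor and ligand genes were tested, with a median of 0.06 and 1 higher and 1 lower at an unadjusted p under 0.05 (12.5%, against 13.1% of all genes). Fgfr2, an FGF receptor of the osteoblast lineage, measured 46.77, 39.84 and 40.66 FPKM in controls, and 31.77, 32.55 and 28.02 in those labelled cKO. All 3 libraries labelled cKO were below all 3 controls (log2 fold change -0.45, SE 0.09, adjusted p = 0.312 from limma). Fgfr2 was 1 of 3 among the 16 whose groups did not overlap, all lower. That is 18.8%, against 18.3% of all genes in either direction and 1368 of 11590 lower. Fgf18, an FGF ligand that acts in the growth of the skull, measured 1.69, 1.29 and 2.33 FPKM in controls, and 2.03, 5.23 and 4.18 in those labelled cKO (log2 fold change 0.75, SE 0.27, adjusted p = 0.337 from limma). Replicates 2 and 3 labelled cKO were above all controls, and replicate 1 was inside their range.

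**Figure D4:**
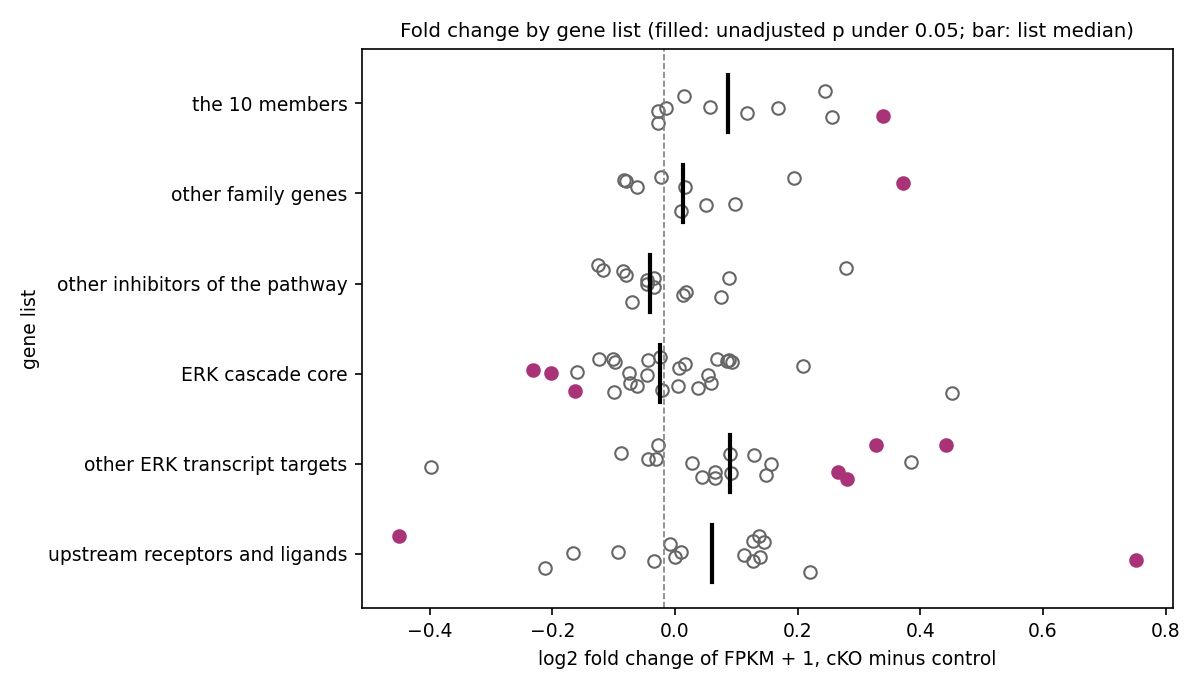
Log2 fold change of FPKM + 1 (horizontal axis, cKO minus control) of the tested genes in each list, one circle a gene, filled where the unadjusted p from limma was under 0.05, with a black bar for the list median and a dashed line at the median of all genes tested (-0.02). The list medians lie between -0.04 and 0.09, and the filled circles are Dusp4 among the 10 genes, 1 other family gene and 4 other transcript targets (all higher), 3 cascade genes (all lower), and 1 higher and 1 lower upstream gene.

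Some markers of other cells also differed between the groups at an unadjusted p under 0.05, as 13.1% of all genes did, with adjusted p values of 0.312 to 0.376 from limma. The 5 epithelial markers summed to 0.46 to 13.39 FPKM in controls and 17.13 to 42.64 in libraries labelled cKO, and 3 of 3 tested had an unadjusted p under 0.05, all higher. The 4 glial markers summed to 3.98 to 4.97 and 4.86 to 7.04 (2 of 3 tested, both higher), and the 5 cartilage markers to 89.6 to 152 and 130 to 163 (2 of 4 tested, both higher), with overlapping sums in both lists. Macrophage markers (35.2 to 94.9 and 46.9 to 79.1), muscle markers (29.8 to 55.0 and 40.6 to 47.0) and endothelial markers (1.84 to 3.87 and 1.84 to 3.40) overlapped, with 0 of 10 tested at that threshold in limma. Within the osteoblast lineage, 5 of 10 tested markers had an unadjusted p under 0.05, with Sp7, Alpl, Ibsp and Bglap lower and Postn higher. The part of these differences in the level of Dusp4 was not tested. In bulk RNA, fewer cells of a type and less RNA per cell cannot be told apart.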

How the data were processed

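Primary calvarial preosteoblasts were sequenced in 6 libraries, grouped by the genotype labels into 3 control and 3 cKO. Per the labels, 150 bp paired-end reads were made from polyA RNA, and the submitters' processing notes name GRCm38, HISAT2 and DESeq. The table that the authors deposited gives FPKM to 2 decimals for each symbol. The annotation, the program behind FPKM and the use of strand in counting are not given in the sources used here. Depth is unknown, so no counting interval was computed.

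Values were taken as log2(FPKM + 1) and compared with limma 3.58.1 in R 4.3.3 (lmFit, eBayes, Benjamini-Hochberg method), keeping the 11590 of 17001 rows that reached an FPKM of 1 in 3 or more libraries. The procedure was tested on simulated data. Single values were compared with exact two-sided permutation tests. Gene positions are from GENCODE M21 (GRCm38), which may not be the authors' annotation, and promoter windows from RefSeq (GRCm38.p6). Motifs were searched on both strands.

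The 10 genes, the other lists and the markers were chosen with earlier results of these data known. Named genes are the 10, Nell2, in each other list those with an unadjusted p under 0.05 or otherwise the 2 largest fold changes, the 5 most similar profiles, and markers. Ccnd1, Zfp36, Spry3 and Dusp2 were named after their values were seen. The 17 alternatives comprised pseudocounts of 0.1 and 0.5, other filters, a variance trend, scaling, library weights, a replicate block, a Y-linked covariate, and leaving out each library.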

Additional observations from a re-analysis of the deposited data

How the results depend on the processing

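Under 17 alternatives, 94 summary values were set against the main setting, namely counts of genes and the median log2 fold change of the 10. Of these, 76 stayed close to it. Close meant an equal count or one within 1.5 times, or a median shifted by less than the SD of the control library medians. No gene of the 10 had an adjusted p under 0.05 in limma under any of the 17 alternatives. Dusp4 stayed at a log2 fold change of 0.31 to 0.45 with an unadjusted p under 0.05 in 17 of 17, and its adjusted p from limma ran from 0.0503 (without cKO replicate 1) to 0.671 (without cKO replicate 3). The number of the 10 with an unadjusted p under 0.05 was 2 with library weights (Dusp4 and Spry2), 2 with Y-linked expression as a covariate (Dusp4 and Dusp5), and 1 to 2 with a library left out, the gene added being Spry2 without control replicate 3, Spry1 without cKO replicate 2 and Dusp5 without cKO replicate 3. Over all genes that number was 2269 with library weights and 1202 with the Y-linked covariate, against 1521 in the main setting. The number of the 10 whose groups did not overlap was 1, Dusp4, with equal FPKM sums and 1 with quantile normalization. It was 2 to 3 with a library left out, where fewer values separate more easily and no share over all genes is given. The median log2 fold change of the 10 was 0.07 to 0.12 with all libraries and 0.020 to 0.15 with a library left out, lowest without control replicate 1. It moved over 1.5 times without control replicates 1 (0.020) or 2 (0.14) and cKO replicates 1 (0.15), 2 (0.05) or 3 (0.04). The sign of Spry4 turned with library weights (0.0087) and the Y-linked covariate (0.034). With a library left out, signs also turned, and the log2 fold change ran from -0.080 to 0.069 for Spry4, from -0.053 to 0.0068 for Spred1, from -0.017 to 0.048 for Spred2 and from -0.055 to 0.0070 for Dusp6. The causes were not tested. Over all genes, the number with an adjusted p under 0.05 in limma was 0 to 334 with a library left out, with 334 without cKO replicate 1 and 2 without control replicate 3. The number with an unadjusted p under 0.05 was 852 to 2459, with 927 without control replicate 1, 926 without control replicate 2, 2459 without cKO replicate 1, 956 without cKO replicate 2 and 852 without cKO replicate 3.

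The labels do not say whether the replicate numbers pair the libraries. Deviations of same-numbered libraries from their group means correlated at 0.03, -0.17 and 0.21. Their mean was 0.025, against -0.014 between libraries of different number, and 3 such values are too few to decide on a pairing. With the replicate number as a block, Dusp4 had an adjusted p of 0.296 in limma, 1465 genes had an unadjusted p under 0.05, and 0 of the 10 passed adjustment.

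FPKM gives no read number, so the counting error of low genes such as Spry4 and Dusp4 is unknown, and rounding to 2 decimals is as large as the gap between the groups of Dusp5. With 3 libraries a group, intervals of Spry1, Spry2, Dusp5 and Etv4 leave room for differences as large as that of Dusp4.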

Other observations

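A pair of ERK pathway genes outside the 10, named after their values were seen, were high in only some of the libraries labelled cKO. Ets2, which encodes an ETS factor phosphorylated by ERK, measured 16.39, 15.29 and 17.39 FPKM in the control libraries, and 15.19, 28.90 and 26.48 in those labelled cKO. The immediate early gene Ier2 measured 16.35, 20.30 and 19.58 FPKM in controls, and 17.63, 28.47 and 29.83 in those labelled cKO. In both genes, replicates 2 and 3 labelled cKO were above all controls and replicate 1 was not, as in Dusp14 and Fgf18. Their log2 fold changes were 0.45 (SE 0.22) and 0.38 (SE 0.20), with adjusted p values of 0.427 and 0.444 (limma, Benjamini-Hochberg). Dusp4 differed from these in that cKO replicate 1 was also above the controls. In that library the same held for Spry1 and Dusp5, and for 2085 of all 11590 genes tested. As Ets2 and Ier2 were chosen by their values, this contrast does not set Dusp4 apart. The share of all genes with only replicates 2 and 3 labelled cKO above the controls was not computed.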
